A study of Homo sapiens with 27 samples.

Results

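RNA sequencing of MDA-MB-231 cells was used to describe what the antimetabolite 5-fluorouracil (5-FU) did to the transcriptome of cells that were also exposed to Compound Kushen Injection (CKI). The 6 libraries compared were chosen by their labels out of 27 in the series. Each group held 3 replicates taken at 48 h. The CKI group received CKI at 1 mg/ml, the CKI+5-FU group received CKI at 1 mg/ml together with 5-FU at 10 µg/ml, and the 5-FU group received 5-FU alone at 10 µg/ml. The comparison of CKI+5-FU with CKI is therefore a comparison of 5-FU with no 5-FU in which every cell carried the CKI exposure. The 5-FU and untreated groups were used to ask, in a second comparison, whether the response differed when CKI was absent. They also entered a joint fit with the 6 libraries and so shaped the scaling and the spread behind every p-value. Untreated cells are the controls of that second comparison, and no library with the vehicle of either drug was compared here. The other libraries of the series are from A431 cells, an epidermoid carcinoma line, and stayed out of the fit. The labels do not say whether the replicates were separate cultures, so the p-values measure the spread between these libraries, which may be technical.

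MDA-MB-231 is an established breast adenocarcinoma line of mesenchymal appearance that lacks the oestrogen and progesterone receptors and carries a mutant p53. CKI is an injectable extract of the herbs Kushen and Baituling that is given beside cancer chemotherapy. 5-FU is a pyrimidine analogue. Cells turn it into nucleotides that block thymidylate synthase and starve DNA synthesis of thymidine, and that are also built into RNA, where they are known to disturb the maturation of ribosomal RNA.

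The 6 libraries held between 19871048 and 21405952 counts, so that 3 counts corresponded to 0.140 to 0.151 CPM. CPM are counts scaled to the library total, here with the TMM factors, and a change is a log2 fold change with its standard error. The mesenchymal markers VIM (722 to 902 CPM), CD44 (657 to 840 CPM) and MSN (910 to 1018 CPM) were high in all 6 libraries, whereas SPARC reached only 0.825 to 2.26 CPM. ESR1 did not pass 0.374 CPM, PGR 0.101 CPM and CDH1 1.37 CPM, but the luminal and epithelial markers ERBB2 (47.6 to 65.1 CPM), GATA3 (11.2 to 13.3 CPM) and EPCAM (6.71 to 9.64 CPM) were detected. Of the A431 markers, DSG3 and LY6D stayed at or below 0.0998 CPM, while KRT14 reached 0.234, DSC3 0.200, TP63 0.765, KRT6A 0.951 and KRT5 2.13 CPM, and EGFR was at 300.2 to 369 CPM. Among the libraries used for the second comparison, untreated replicate 1 stood apart from its group, with a chi-square per degree of freedom of 71.8 and 82.9 against the other untreated replicates where replicates of the CKI and CKI+5-FU groups gave 2.21 to 4.76.

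Adding 5-FU to CKI moved many genes by a little and few genes by much. Of 13999 genes tested, 5889 passed an adjusted p of 0.05, which is 42.1% of them, with 3090 higher (22.1%) and 2799 lower (20%) in CKI+5-FU. A total of 533 genes (3.81%) also changed by more than 1 on the log2 scale and are called DE genes here. Of these, 177 were higher (1.26%) and 356 were lower (2.54%). In 527 of the 533 DE genes the 3 libraries of each group did not overlap, as they did not in 64.8% of all genes tested. Many of the DE genes were weakly expressed, since 280 of them stayed under 5 CPM in the group where they were higher. Scaling by library size alone gave 225 higher and 266 lower DE genes, a more even split than that of the TMM factors. The spread in the main fit also drew on the 5-FU and untreated libraries, untreated replicate 1 among them. A fit of the 6 compared libraries alone gave 161 higher and 350 lower DE genes.

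The fold change was related to the base composition of the transcripts. Across genes, the Spearman correlation of the log2 fold change with the GC content of the transcript was -0.52, and the correlation with transcript length was 0.07. When genes were sorted by GC content into 5 groups of equal size, the lowest group had a median log2 fold change of 0.26 and 0.288% of its genes were DE and lower. In the highest group the median was -0.36 and 7.59% were DE and lower. The relation was present between libraries too, with a rank correlation of a library's deviation with GC content of 0.29 to 0.33 in the CKI libraries and of -0.53 to -0.27 in the CKI+5-FU libraries. It also varied within the untreated group, at -0.39 in untreated replicate 1 against 0.41 and 0.44 in untreated replicates 2 and 3. In the 5-FU libraries it was -0.18 to -0.03. When each library's trend with GC content and length was entered as an offset, 348 DE genes were obtained, of which 150 were higher and 198 were lower. Of the 533 DE genes, 285 (53.5%) were called in that fit as well. Whether the trend belongs to the RNA or to the library preparation cannot be told apart here, and values with these offsets are given below where they change the call of a described gene or a list's counts by over 1.5 times.

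**Figure D1:**
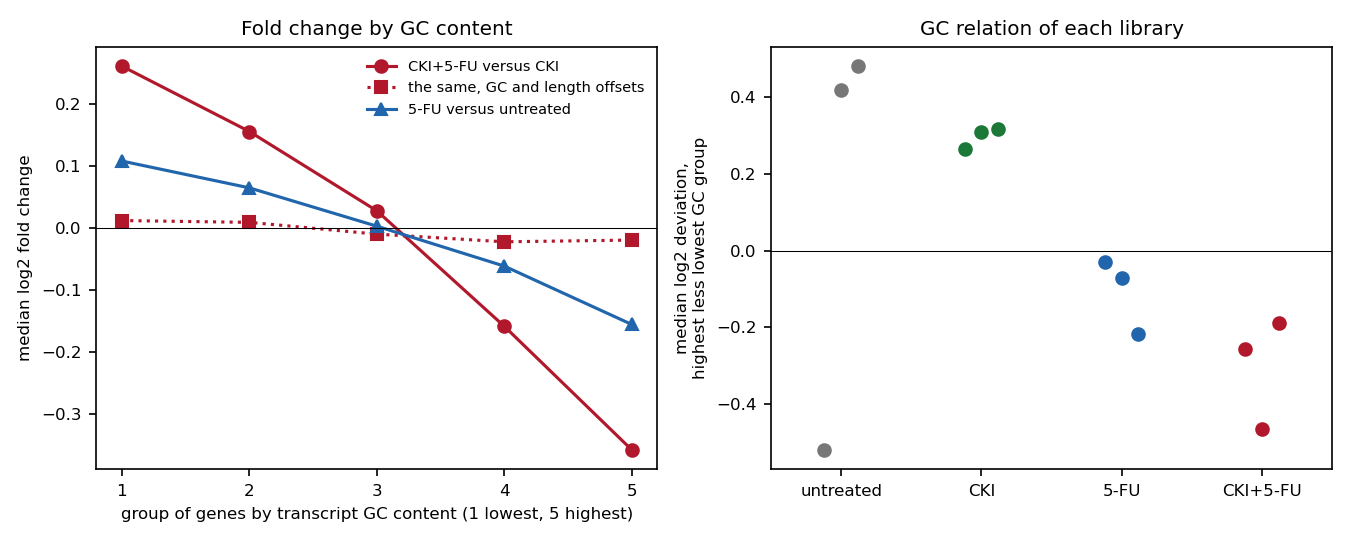
Left, the median log2 fold change (y axis) of genes sorted into 5 groups by the GC content of their transcripts (x axis) for CKI+5-FU versus CKI, without and with GC and length offsets, and for 5-FU versus untreated. Right, for each of the 12 libraries, the median log2 deviation from the mean library of the highest GC group less that of the lowest, where the 3 CKI libraries lie at 0.26 to 0.32 and the 3 CKI+5-FU libraries at -0.46 to -0.19. Untreated replicate 1 lies at -0.52 and the other untreated libraries at 0.42 and 0.48.

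Among DE genes with at least 5 CPM, the largest fall was that of SEMA6B, which encodes a transmembrane semaphorin. Its level was 221, 233 and 260 CPM in the CKI libraries and 62.0, 43.9 and 61.3 CPM in the CKI+5-FU libraries (log2 fold change -2.09 ± 0.47, adjusted p = 0.0041). The groups were far apart, and the log2 fold change was -1.59 with the GC and length offsets. The transcript is 67.9% G and C. The long non-coding RNA LINC03040 fell from 15.5, 14.7 and 18.4 CPM to 3.90, 3.75 and 4.27 CPM (-2.03 ± 0.22, adjusted p = 3.2e-05). SEMA5A, another semaphorin gene, fell from between 4.39 and 6.44 CPM to between 1.28 and 1.85 CPM (-1.85 ± 0.22). The secreted peptide gene APLN fell by 1.78, the lipid transporter ABCA3 by 1.72, the membrane-bound protease MMP15 by 1.71, the complement C1q-like gene C1QL1 by 1.84 and the unclassified locus LOC613038 by 1.79. All 8 of these genes were DE with the offsets as well.

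The largest rise among such genes was that of DDIT3, the transcription factor CHOP of the stress response. DDIT3 stood at 11.9, 11.1 and 9.52 CPM in CKI cells and at 39.2, 38.4 and 42.9 CPM in CKI+5-FU cells, a fold change of 3.70 (log2 1.89 ± 0.12, adjusted p = 1.9e-06). The zinc finger gene ZSCAN12 rose from between 4.98 and 5.82 CPM to between 14.6 and 18.3 CPM (1.62 ± 0.12), and the membrane protein gene TMEM182 rose by 1.44. The translation initiation factor EIF5 was abundant, at 148, 157 and 152 CPM in CKI cells, and rose to 395, 427 and 396 CPM (1.41 ± 0.07, adjusted p = 5e-07). BIRC3, CXCL3 and IL24 also belonged to the 8 genes of largest rise and are described with their pathways. The sorting receptor gene SORCS3 rose from between 2.21 and 3.21 CPM to between 5.97 and 7.82 CPM (1.35 ± 0.18).

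The 250 bases before the annotated start of LINC03040, SEMA5A, DDIT3 and ZSCAN12, which were among the genes of largest change, are shown so that their promoters can be compared, with sequences from RefSeq on GRCh38.p14 and capitals marking matches, on either strand, to 6 motifs. The motifs were the CCAAT box (CCAAT), the cell cycle homology region or CHR (TTTGAA), the core of the sterol response element (CACCCCA), an NF-kappa-B site (GGGNNTTTCC), the TATA box (TATAAA) and a C/EBP-ATF element (TGATGCA). Promoters were found for 11235 of the 13999 genes tested, and none is printed for SEMA6B. LINC03040 lies at chr6:44000335-44000584 (plus strand), SEMA5A at chr5:9546076-9546325 (minus strand), DDIT3 at chr12:57520515-57520764 (minus strand) and ZSCAN12 at chr6:28399748-28399997 (minus strand).
LINC03040: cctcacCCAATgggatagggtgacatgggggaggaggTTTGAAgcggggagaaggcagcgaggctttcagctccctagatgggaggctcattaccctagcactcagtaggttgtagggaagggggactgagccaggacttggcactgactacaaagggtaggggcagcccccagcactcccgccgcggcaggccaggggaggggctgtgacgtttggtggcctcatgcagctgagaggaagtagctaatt
SEMA5A: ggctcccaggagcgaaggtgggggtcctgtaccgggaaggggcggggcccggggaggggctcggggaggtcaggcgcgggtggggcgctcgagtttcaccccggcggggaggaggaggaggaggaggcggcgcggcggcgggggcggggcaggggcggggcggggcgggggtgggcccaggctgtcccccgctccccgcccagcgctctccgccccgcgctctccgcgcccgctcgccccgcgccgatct
DDIT3: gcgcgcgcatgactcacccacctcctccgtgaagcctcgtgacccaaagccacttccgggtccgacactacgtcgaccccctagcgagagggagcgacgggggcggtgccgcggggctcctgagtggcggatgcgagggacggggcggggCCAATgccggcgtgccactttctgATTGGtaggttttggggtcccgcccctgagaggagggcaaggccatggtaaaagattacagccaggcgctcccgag
ZSCAN12: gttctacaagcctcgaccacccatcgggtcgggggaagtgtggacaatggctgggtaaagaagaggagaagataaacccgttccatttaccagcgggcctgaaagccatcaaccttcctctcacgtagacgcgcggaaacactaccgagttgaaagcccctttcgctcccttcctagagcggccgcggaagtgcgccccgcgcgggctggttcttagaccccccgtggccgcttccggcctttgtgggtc
LINC03040 held a CCAAT box and a CHR match, DDIT3 held 2 CCAAT boxes in opposite orientation, and SEMA5A and ZSCAN12 held no match in this window. A CCAAT box was found in 34.78% of all promoters, in 38.15% of those of the lower DE genes and in 30.23% of those of the higher DE genes. The TATA box was found in 5.812% of all promoters, in 7.229% of those of the lower DE genes and in 14.73% of those of the higher DE genes. A match is a run of letters and not a measured binding site.

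The enzymes that 5-FU acts on moved little at the level of RNA. TYMS, which encodes thymidylate synthase, was measured at 62.1, 61.3 and 58.9 CPM in CKI cells and at 67.6, 66.9 and 64.6 CPM in CKI+5-FU cells (0.13 ± 0.10, adjusted p = 0.34). Its 2 groups did not overlap, but the difference did not pass the test. Of 34 genes of pyrimidine and folate metabolism, 10 rose, 6 fell and none was a DE gene, where 22.1% of all genes rose and 20% fell. The median of the list was 0.08 and that of all genes 0.01. The largest rise was that of CTPS1, the CTP synthase, from 82.8, 82.8 and 79.6 CPM to 121, 122 and 122 CPM (0.58 ± 0.08). TK1, the cytosolic thymidine kinase of the salvage pathway, fell from 221, 214 and 221 CPM to 132, 120 and 134 CPM (-0.77 ± 0.12, adjusted p = 0.00034), and SHMT2, the mitochondrial serine hydroxymethyltransferase, fell by 0.67. RRM2, a subunit of ribonucleotide reductase, was at 0.12 without offsets and at -0.06 with them and passed the test in neither fit (adjusted p = 0.36 and 0.40).

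Genes of DNA replication and repair rose more often than they fell, where 22.1% of all genes rose and 20% fell. In the list of origin licensing and replisome genes, 19 of 44 rose and 6 fell, or 21 and 3 with offsets, with a median of 0.16. The DE gene of that list was TIPIN, a factor of the fork protection complex, at 12.9, 14.2 and 12.3 CPM in CKI cells and 26.1, 28.8 and 28.6 CPM in CKI+5-FU cells (1.08 ± 0.10), or 0.85 with offsets. Of 42 DNA repair and checkpoint genes, 20 rose and 3 fell, or 21 and 6 with offsets, with a median of 0.25 and no DE gene. The recombination factors XRCC2 and RAD54L rose by 0.86 ± 0.07 and 0.44 ± 0.07, while H2AX, the histone variant marked at DNA breaks, fell by 0.93. Among G1 regulators, 8 of 25 rose and 6 fell, beside 22.1% and 20% of all genes, and the DE gene was the CDK inhibitor CDKN1C, which fell by 1.15 ± 0.24, or by 0.82 with offsets. Cyclin D1 (CCND1) fell by 0.34 ± 0.11.

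Replication-dependent histone genes, of which 16 of the 33 listed passed the filter on low counts, had 6 members that rose and none that fell. The shares over all genes were 22.1% and 20%. H2AC6 went from 14.2, 14.0 and 14.7 CPM to 32.9, 36.4 and 36.4 CPM (1.30 ± 0.21, adjusted p = 0.00054), and H4C8 from 3.88, 3.81 and 4.40 CPM to 7.85, 9.72 and 10.0 CPM (1.19 ± 0.22). In each of these genes the highest CKI library lay below the lowest CKI+5-FU library, and 64.8% of all genes had groups without overlap. Most histone mRNAs of this class end without a poly(A) tail, and histone genes are near-copies of each other, so that reads can be split between them.

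Genes of mitosis fell together. Of 40 genes of mitosis and the spindle checkpoint, 31 fell and none rose at an adjusted p of 0.05, with a median log2 fold change of -0.47, and with the GC and length offsets 37 fell and the median was -0.52. Without the offsets, 20% of all genes fell and 22.1% rose. PLK1, the mitotic kinase that drives entry into and exit from mitosis, was at 136, 142 and 141 CPM in CKI cells and at 61.9, 62.4 and 66.5 CPM in CKI+5-FU cells (-1.14 ± 0.09, adjusted p = 5.2e-06), a 2.20-fold lower level. KIF20A, a kinesin of cytokinesis, fell from 104, 110 and 104 CPM to 48.8, 57.0 and 52.2 CPM (-1.01 ± 0.10), close to the threshold for DE genes, which it missed at -0.99 without CKI replicate 2, at -0.95 without CKI+5-FU replicate 1 and at -0.93 with library size alone. PLK1 missed the threshold at -0.96 with the offsets. The fall covered cyclin B1 (CCNB1, -0.77), the kinase AURKA (-0.76), the separase ESPL1 (-0.70), the kinetochore protein CENPA (-0.69) and the anaphase activator CDC20 (-0.61). CDK1 (-0.23), TTK (-0.02) and MAD2L1 (0.08) did not pass the test, although CDK1 (-0.58) and TTK (-0.32) fell with the offsets. The promoter of PLK1 at chr16:23678639-23678888 (plus strand) is printed as an example, chosen after its values were seen, because it shows the CCAAT box and the CHR that are frequent in this list.
PLK1: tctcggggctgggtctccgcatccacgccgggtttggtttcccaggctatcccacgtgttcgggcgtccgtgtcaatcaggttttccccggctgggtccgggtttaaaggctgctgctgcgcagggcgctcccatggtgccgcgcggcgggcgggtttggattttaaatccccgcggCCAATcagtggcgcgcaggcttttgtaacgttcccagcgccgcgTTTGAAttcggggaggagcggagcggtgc
The CHR letters were found in 52.94% of the 34 promoters of the list that were available and in 8.625% of all promoters, and the CCAAT box in 76.47% and 34.78%, respectively. Bulk RNA cannot tell fewer mitotic cells from less RNA of these genes in each cell.

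Genes that build ribosomes rose together. Of 51 genes of ribosomal RNA processing and ribosome assembly, 42 rose and none fell, with a median of 0.45, and with the offsets 45 rose with a median of 0.43. Without the offsets, 22.1% of all genes rose and 20% fell. UTP4, a component of the small subunit processome, went from 53.3, 55.3 and 56.1 CPM to 126, 135 and 125 CPM (1.23 ± 0.08, adjusted p = 2.7e-06). The other members rose by less than 1 on the log2 scale, among them PNO1 (0.91), the RNA polymerase I subunit POLR1B (0.87), the helicase DDX21 (0.73) and nucleolin, NCL (0.45). The genes for the cytosolic ribosomal proteins moved less, with 17 of 77 higher, 5 lower and a median of 0.18, or 22 higher, 8 lower and a median of 0.06 with offsets. Without offsets the share that rose was 22.1% both in this list and over all genes. Over all settings run 10 to 50 of the list rose and 4 to 9 fell. Among them RPL3 fell from 1253, 1201 and 1216 CPM to 829, 868 and 888 CPM (-0.51 ± 0.05) and RPS9 fell by 0.47 ± 0.05. Ribosomal protein genes have many processed pseudogenes, which makes their counts uncertain. Of 77 nuclear genes of the respiratory chain, 6 rose and 6 fell, with a median of 0.06, but 14 rose and 20 fell with the offsets, and over all settings run 3 to 31 rose and 4 to 20 fell. SDHA, a subunit of succinate dehydrogenase, fell by 0.34 ± 0.05, and NDUFV2 rose by 0.91 ± 0.16 from between 2.08 and 2.70 CPM.

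Genes of cholesterol synthesis had the lowest median of the 27 lists. Of 25 genes of sterol synthesis and uptake, 21 fell and none rose, with a median log2 fold change of -0.85, and 11 of them were DE genes. Over all genes 20% fell, 22.1% rose and 3.81% were DE. INSIG1, the endoplasmic reticulum protein that holds back the sterol sensor SCAP, was at 305, 313 and 310 CPM in CKI cells and at 142, 139 and 142 CPM in CKI+5-FU cells (-1.14 ± 0.06, adjusted p = 1.1e-06). LSS, the lanosterol synthase, fell from 246, 256 and 261 CPM to 104, 97.0 and 106 CPM (-1.31 ± 0.10), and the methylsterol oxidase MSMO1 from 397, 394 and 386 CPM to 192, 189 and 189 CPM (-1.04 ± 0.09, or -0.97 with library size alone). In these genes the lowest CKI library lay far above the highest CKI+5-FU library, and 64.8% of all genes had groups without overlap. The fall reached from early steps of the pathway, with HMGCS1 (-1.11) and the mevalonate kinase MVK (-1.09 ± 0.08), to its last step, with DHCR7 (-1.11), and included the transcription factors SREBF1 (-1.04) and SREBF2 (-0.85). With GC and length offsets 24 members fell, the median was -0.80 and 6 were DE genes, with MVK at -0.82, DHCR7 at -0.90 and SREBF1 at -0.67. The promoter of INSIG1 at chr7:155297628-155297877 (plus strand), chosen after its values were seen, is printed for the sterol genes.
INSIG1: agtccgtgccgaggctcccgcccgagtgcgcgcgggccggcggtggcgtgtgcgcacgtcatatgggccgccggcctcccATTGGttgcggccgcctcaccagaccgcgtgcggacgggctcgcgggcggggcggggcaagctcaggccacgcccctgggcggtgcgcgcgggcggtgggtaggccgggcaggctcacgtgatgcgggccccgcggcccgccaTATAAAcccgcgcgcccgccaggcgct
It held a CCAAT box on the minus strand and a TATA box. In the 19 promoters of the list that were available, the CCAAT box was found in 78.95% and the core of the sterol response element in 21.05%, against 34.78% and 6.453% of all promoters.

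Genes of glycolysis and of the response to hypoxia fell as well, 21 of 27 with 1 that rose and a median of -0.40, or 21 with 2 that rose and a median of -0.36 with offsets. Without offsets, 20% of all genes fell and 22.1% rose. The aldolase ALDOC fell from 14.4, 15.8 and 16.0 CPM to 5.85, 5.83 and 5.77 CPM (-1.40 ± 0.11, adjusted p = 4.2e-06), and the carbonic anhydrase CA9 from between 2.63 and 2.70 CPM to between 0.678 and 1.31 CPM (-1.34 ± 0.29). The abundant enzymes changed less, with ALDOA at -0.56, ENO1 at -0.42, LDHA at -0.26 and GAPDH at -0.19 (-0.07 with offsets, adjusted p = 0.14), and the muscle form of phosphofructokinase, PFKM, rose by 0.23. VEGFA was at 0.15 and did not pass the test, but rose by 0.18 with offsets.

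Of 34 collagens and matrix proteins, 17 fell, 4 rose and 13 did not pass the test, with 4 DE genes, all lower, and a median of -0.30. For this list and those that follow here, the shares over all genes were 20% that fell and 22.1% that rose, with 2.54% DE and lower. With the GC and length offsets 17 fell, 9 rose, 2 were DE and lower, 1 was DE and higher, and the median was -0.09. COL5A1 fell from 243, 249 and 258 CPM to 118, 109 and 122 CPM (-1.10 ± 0.18, or -0.76 with offsets), and COL18A1 by 1.15 ± 0.25, or by 0.65 with offsets. COL1A2 and COL4A4 were DE genes at under 3 CPM, with falls of 1.65 ± 0.34 and 1.27 ± 0.34, and COL4A4 lost the call without CKI+5-FU replicate 2 (adjusted p = 0.050). Of 16 targets of YAP and TEAD, 10 fell and 1 rose, with a median of -0.30, among them CCN2, from 1188, 1201 and 1171 CPM to 911, 924 and 874 CPM (-0.39 ± 0.05). In the list of TGF-beta, BMP and ID genes 8 of 16 fell and 2 rose, with a median of -0.43. The ligand TGFB2 fell by 0.64 ± 0.06, whereas TGFB3 rose from between 0.663 and 1.37 CPM to between 2.28 and 2.53 CPM (1.20 ± 0.21), or by 0.97 without CKI replicate 1.

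Of 24 matrix proteases and genes of the plasminogen system, 5 rose and 6 fell, with a median of -0.05, beside 22.1% and 20% of all genes. The interstitial collagenase MMP1 rose from 210, 218 and 220 CPM to 391, 422 and 425 CPM (0.94 ± 0.06, adjusted p = 2.1e-06), just short of the DE threshold, and reached 1.01 with library size alone. MMP15 was described above, MMP17 fell by 1.23 ± 0.26 (0.71 with offsets), and SERPINB2, at or below 1.09 CPM throughout, rose by 1.47 ± 0.37. In the list on epithelial and mesenchymal state 4 of 11 genes rose and 3 fell. The transcription factor ZEB1, which represses E-cadherin, rose from between 59.1 and 62.3 CPM to between 94.8 and 104 CPM (0.68 ± 0.06), and the receptor CD44 rose by 0.30 ± 0.08. CDH1, which encodes E-cadherin, was scarce, with 0.919, 0.517 and 1.37 CPM in CKI cells and 0.381, 0.362 and 0.340 CPM in CKI+5-FU cells (-1.35 ± 0.49, adjusted p = 0.044). Its call was lost without CKI replicate 1 or 3, where adjusted p was 0.086 and 0.18, and without any of the CKI+5-FU replicates, where it was 0.090 to 0.10.

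Of 31 targets of p53, 9 rose and 7 fell, with a median of 0.01, where 22.1% of all genes rose and 20% fell. CDKN1A, the CDK inhibitor p21, was at 193, 196 and 199 CPM in CKI cells and 174, 171 and 175 CPM in CKI+5-FU cells (-0.18 ± 0.07, adjusted p = 0.052). The 2 groups of CDKN1A did not overlap, and with the offsets the log2 fold change had an adjusted p of 0.97. MDM2, the ligase that degrades p53, rose by 0.34 ± 0.06 and GADD45A by 0.85. The growth factor GDF15 fell from 36.1, 38.2 and 38.5 CPM to 15.5, 17.7 and 21.7 CPM (-1.04 ± 0.14, or -0.73 with offsets), and its call was lost without CKI+5-FU replicate 1 (-0.93) and with library size alone (-0.97). Of 33 apoptosis regulators 8 rose and 7 fell, with a median of 0.13, shares near those of all genes. BIRC3, which encodes the inhibitor of apoptosis cIAP2, rose from 65.2, 60.8 and 68.3 CPM to 168, 183 and 172 CPM (1.43 ± 0.07, adjusted p = 5e-07), and MCL1 rose by 0.50. BBC3 fell by 0.77 and BAX by 0.41, but with offsets BBC3 fell by 0.23 and BAX, at -0.19, did not pass the test (adjusted p = 0.078).

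Genes of the stress responses did not share a direction, and their counts stand beside 22.1% of all genes that rose and 20% that fell. In the list of ATF4 targets and the integrated stress response 15 of 31 fell and 5 rose, with a median of -0.30, although DDIT3 of this list had the largest rise given above. ATF3, a stress-induced partner of DDIT3, rose from 15.4, 16.6 and 15.3 CPM to 34.1, 33.9 and 34.3 CPM (1.11 ± 0.07), and the phosphatase subunit PPP1R15A rose by 0.89, or by 1.12 with offsets. Genes of amino acid supply were lower, with the transporter SLC7A5 at -1.43 and PSAT1 at -0.93 (-1.11 with offsets), while PHGDH, which makes serine, fell from 19.9, 17.7 and 17.8 CPM to 7.23, 6.55 and 8.29 CPM (-1.32 ± 0.14). DDIT4, an inhibitor of mTORC1, fell by 1.06 ± 0.15, or by 0.99 with library size alone, which ended its call. Of 20 genes of the unfolded protein response of the endoplasmic reticulum, 14 fell and 2 rose, or 16 and 1 with offsets, with a median of -0.37. Its chaperones CALR (-0.84) and HSPA5 (-0.54) fell, and the sensor ERN1 (IRE1) rose from 15.2, 16.4 and 17.7 CPM to 37.9, 37.2 and 32.1 CPM (1.12 ± 0.15).

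In the cytosolic heat shock list 5 of 14 genes rose and 5 fell. For this list and those that follow here, the shares over all genes were 22.1% that rose and 20% that fell. HSPA1A, the inducible HSP70, fell from 31.7, 31.2 and 26.0 CPM to 11.2, 13.2 and 12.5 CPM (-1.27 ± 0.11, adjusted p = 7.8e-06), and its near-identical copy HSPA1B was at -0.81, so that reads could have been split between them. Of 23 NRF2 targets 3 rose and 6 fell, or 5 and 7 with offsets, the pentose phosphate enzymes TKT (-0.40 ± 0.07) and TALDO1 (-0.39 ± 0.05) among them. In the aryl hydrocarbon receptor battery 2 of 8 rose and 3 fell, or 1 and 2 with offsets. CYP1A1, its best known target and a strongly expressed gene in cells under CKI, fell from 95.0, 96.1 and 100 CPM to 64.5, 67.6 and 68.0 CPM (-0.54 ± 0.10, adjusted p = 0.0014). ALDH3A1 fell by 1.11 ± 0.31 with 2.5, 2.16 and 2.08 CPM against 0.666, 1.04 and 1.41 CPM, and lost the call without CKI+5-FU replicate 1 (adjusted p = 0.056) and with offsets (-0.86).

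Among 26 immediate early and stress factors 6 rose and 3 fell, beside 22.1% and 20% of all genes, or 12 rose and 4 fell with offsets. EGR1, EGR2 and EGR3, zinc finger factors induced by growth signals, all rose, EGR1 from 202, 207 and 221 CPM to 490, 414 and 455 CPM (1.11 ± 0.19, adjusted p = 0.00083), EGR2 from between 0.817 and 1.32 CPM to between 3.44 and 3.80 CPM (1.75 ± 0.17) and EGR3 from between 0.408 and 0.799 CPM to between 2.40 and 3.15 CPM (2.12 ± 0.28). FOS, the partner of JUN in AP-1, was at 258, 257 and 242 CPM in CKI cells and 280, 258 and 244 CPM in CKI+5-FU cells (0.04 ± 0.12, adjusted p = 0.79), with overlapping groups. JUND fell by 1.02, or by 0.47 with offsets.

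Inflammatory genes rose. Of 17 subunits and feedback genes of NF-kappa-B 10 rose and none fell, with a median of 0.39, and with offsets 12 rose with a median of 0.42. For this list and the cytokines, the shares over all genes were 22.1% that rose and 20% that fell. TRAF1, an adaptor of TNF receptors, went from 21.8, 24.0 and 21.2 CPM to 49.4, 56.3 and 53 CPM (1.24 ± 0.07, adjusted p = 1.1e-06), and TNFAIP3, the feedback inhibitor A20, rose by 0.93. Of 20 cytokines and chemokines 12 rose and 2 fell, with a median of 0.41, and 6 were DE and higher. With offsets 9 rose and 2 fell, and 4 were DE and higher. CXCL8, which attracts neutrophils, rose from 86.2, 82.3 and 81.3 CPM to 201, 206 and 194 CPM (1.27 ± 0.08, adjusted p = 1.9e-06), and by 0.86 with offsets. IL24 rose from 22.2, 24.8 and 24.0 CPM to 57.2, 63.8 and 61.7 CPM (1.36 ± 0.10). IL1A rose from 10.7, 12.9 and 11.5 CPM to 28, 31.4 and 28.3 CPM (1.32 ± 0.12). These 3 genes had no overlap between groups, as held for 64.8% of all genes tested. CXCL3 rose by 1.36 ± 0.13 and IL1B by 0.48 ± 0.12, whereas the monocyte attractant CCL2 fell by 0.82, or by 1.10 with offsets, and CSF1 by 0.72. Of 41 interferon-stimulated genes and sensors 7 rose and 11 fell, with a median of -0.07, where 22.1% of all genes rose and 20% fell. The DNA sensor CGAS rose by 0.63 ± 0.06 and BST2, which tethers virions, fell by 0.62 ± 0.06. The promoter of CXCL8 at chr4:73740319-73740568 (plus strand), chosen after its values were seen, is printed for the cytokines.
CXCL8: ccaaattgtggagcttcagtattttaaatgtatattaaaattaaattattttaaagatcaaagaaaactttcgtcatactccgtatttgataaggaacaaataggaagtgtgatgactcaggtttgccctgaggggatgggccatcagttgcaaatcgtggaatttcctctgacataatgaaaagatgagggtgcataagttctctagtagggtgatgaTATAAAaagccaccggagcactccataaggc
It held a TATA box and no match to the NF-kappa-B letters searched. The printed stretch tggaatttcc differed from those letters only in its first base, and a letter search cannot show that a site is absent. Those letters were found in 33.33% of the 15 available cytokine promoters, in 40% of the 15 of the NF-kappa-B list and in 2.02% of all promoters.

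**Figure D2:**
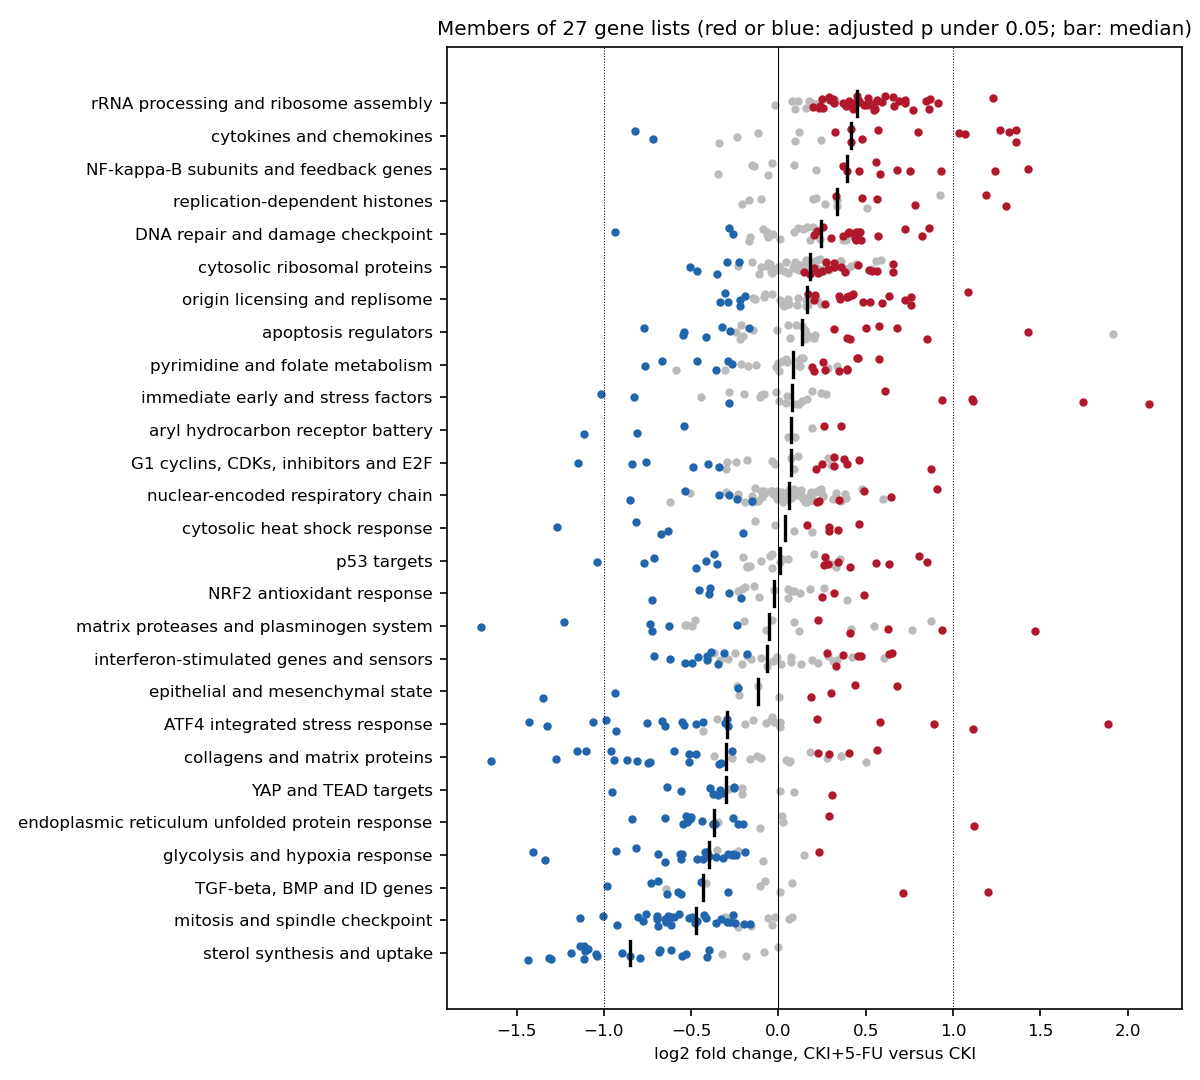
Log2 fold change of CKI+5-FU versus CKI (x axis) for the tested members of 27 gene lists (y axis, sorted by median), with red and blue points for an adjusted p under 0.05 and black bars for medians. The sterol list is lowest, with a median of -0.85, and the list of ribosomal RNA processing is highest, with a median of 0.45.

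**Figure D3:**
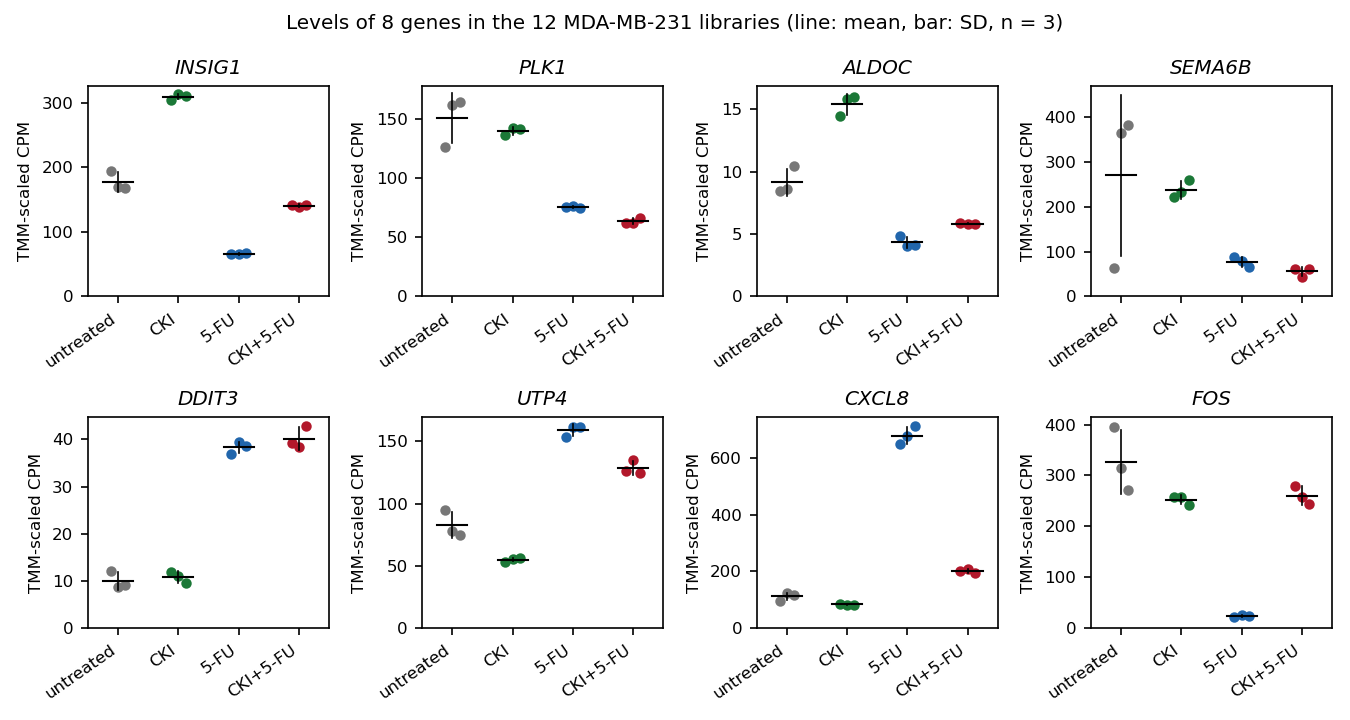
TMM-scaled CPM (y axis) of 8 genes in each of the 12 libraries by group (x axis), with the mean and SD of 3 replicates. INSIG1, PLK1, ALDOC and SEMA6B are lower and DDIT3, UTP4 and CXCL8 are higher in CKI+5-FU than in CKI without overlap, while FOS overlaps between those groups and is lowest in 5-FU alone, and untreated replicate 1 is far from its group in SEMA6B.

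Whether 5-FU did the same to cells without CKI was asked by testing the difference between this response and that of 5-FU versus untreated, which shares no library with it. Without CKI, 1866 genes (13.3%) were DE, 6.01% of genes being higher and 7.31% lower, and 57.1% passed an adjusted p of 0.05. Of the 533 genes that were DE under CKI, 465 (87.2%) had the same sign without it, 294 were DE in the same direction, which is 55.2% of the 533 and 15.8% of the 1866, and 6 were DE in the opposite direction. The share with the same sign over all genes was not computed, so the 87.2% cannot be called particular to the DE genes. Across all genes the Pearson correlation of the 2 responses was 0.52, and the median absolute log2 fold change was 0.286 under CKI and 0.391 without it. Genes are not independent replicates, and this correlation is a description. The difference itself passed both thresholds in 958 genes (6.84%), with 425 higher (3.04%) and 533 lower (3.81%) under CKI, and in 1062 genes without untreated replicate 1. Of the genes that were DE under CKI, 115 had such a difference. Of the 1866 genes that were DE without CKI, 647 had it, and in 644 of these the response was smaller under CKI. These genes were chosen by their value without CKI, so that this count is a description.

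DDIT3 went from 12.1, 8.68 and 9.13 CPM in untreated cells to 37.0, 39.4 and 38.6 CPM with 5-FU alone (1.95), and its difference between responses was -0.06 ± 0.17 (adjusted p = 0.81). PLK1 fell by 0.99 without CKI (difference -0.14 ± 0.12), LSS by 1.25 (difference -0.06 ± 0.14) and MSMO1 by 0.99 (difference -0.05 ± 0.12), none of which passed the test of the difference. INSIG1 fell by 1.43 without CKI and by less with it (difference 0.29 ± 0.09, adjusted p = 0.025). In the sterol list 19 of 25 members fell without CKI, with a median of -0.50, where 28.5% of all genes fell and 28.6% rose. The difference was lower under CKI in 6 members and higher in 1, where 14.3% of all genes were lower and 17.1% higher. Without untreated replicate 1 it was lower in 11 and higher in 4. UTP4 rose by 0.94 without CKI (difference 0.29 ± 0.12, adjusted p = 0.078), and in its list of 51 genes the difference was higher in 13 and lower in 1, or higher in 21 and lower in 7 without untreated replicate 1. In the mitosis list the median without CKI was -0.11, with 16 of 40 lower and 8 higher, beside 28.5% and 28.6% of all genes. The difference was lower under CKI in 17 of these genes at an adjusted p of 0.05 and higher in none, and without untreated replicate 1 it was lower in 28.

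Inflammatory genes responded to 5-FU in both settings, and the rise was smaller under CKI for most of the cytokines. CXCL8 went from 96.7, 122 and 115 CPM in untreated cells to 648, 678 and 711 CPM with 5-FU alone (2.61), and the difference between responses was -1.34 ± 0.11 (adjusted p = 9.6e-06). The difference was -2.27 ± 0.16 for IL24, -2.17 ± 0.18 for IL1A, -1.30 ± 0.17 for IL1B and -1.22 ± 0.10 for TRAF1. IL24 and IL1A already stood higher in CKI cells than in untreated cells, where IL24 was at 1.54, 1.91 and 2.49 CPM and IL1A at 2.38, 3.45 and 3.14 CPM. Of the 20 cytokines, 13 had a lower and 1 a higher response under CKI at an adjusted p of 0.05, where 14.3% of all genes had a lower and 17.1% a higher one. MMP1 showed the same arrangement, with 30.3, 26.6 and 27.7 CPM in untreated cells and between 299.6 and 313 CPM with 5-FU alone (3.43, difference -2.5 ± 0.09, adjusted p = 1.5e-08). A smaller rise was not always a lower level. Mean CPM was higher in CKI+5-FU than in 5-FU for IL24 (60.9 against 24.6) and MMP1 (413 against 304). It was lower for CXCL8 (200 against 679), IL1A (29.2 against 33.8), IL1B (33.3 against 47.5) and TRAF1 (52.9 against 124).

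Several other named genes differed between the responses. CDKN1A rose from 134, 160 and 162 CPM to 439, 447 and 444 CPM without CKI (1.54, difference -1.72 ± 0.10, adjusted p = 4.6e-07). GDF15 rose by 0.62 without CKI and fell with it (difference -1.66 ± 0.20), as did TK1, which rose by 0.48 (difference -1.24 ± 0.16). RRM2 rose by 1.27 without CKI (difference -1.15 ± 0.14). CYP1A1 rose from 1.80, 1.07 and 0.898 CPM to 5.28, 5.68 and 4.75 CPM without CKI (2.07) and fell from a far higher level with it (difference -2.61 ± 0.20). FOS fell from 395, 314 and 271 CPM to 20.9, 25.1 and 24.4 CPM without CKI (-3.80, difference 3.84 ± 0.17, adjusted p = 1.2e-07), and FOSB fell by 3.05 (difference 2.60 ± 0.31). EGR1, which rose under CKI, was at -0.20 without it (adjusted p = 0.40), and its difference was 1.30 ± 0.27. The 5-FU libraries lay at 195 to 201 CPM of EGR1, above untreated replicate 1 (140 CPM) and below untreated replicates 2 and 3 (252 and 290 CPM). Without untreated replicate 1 the difference was 1.56. HSPA1A, which fell under CKI, was at 0.12 without it (adjusted p = 0.35), with a difference of -1.38 ± 0.15.

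**Figure D4:**
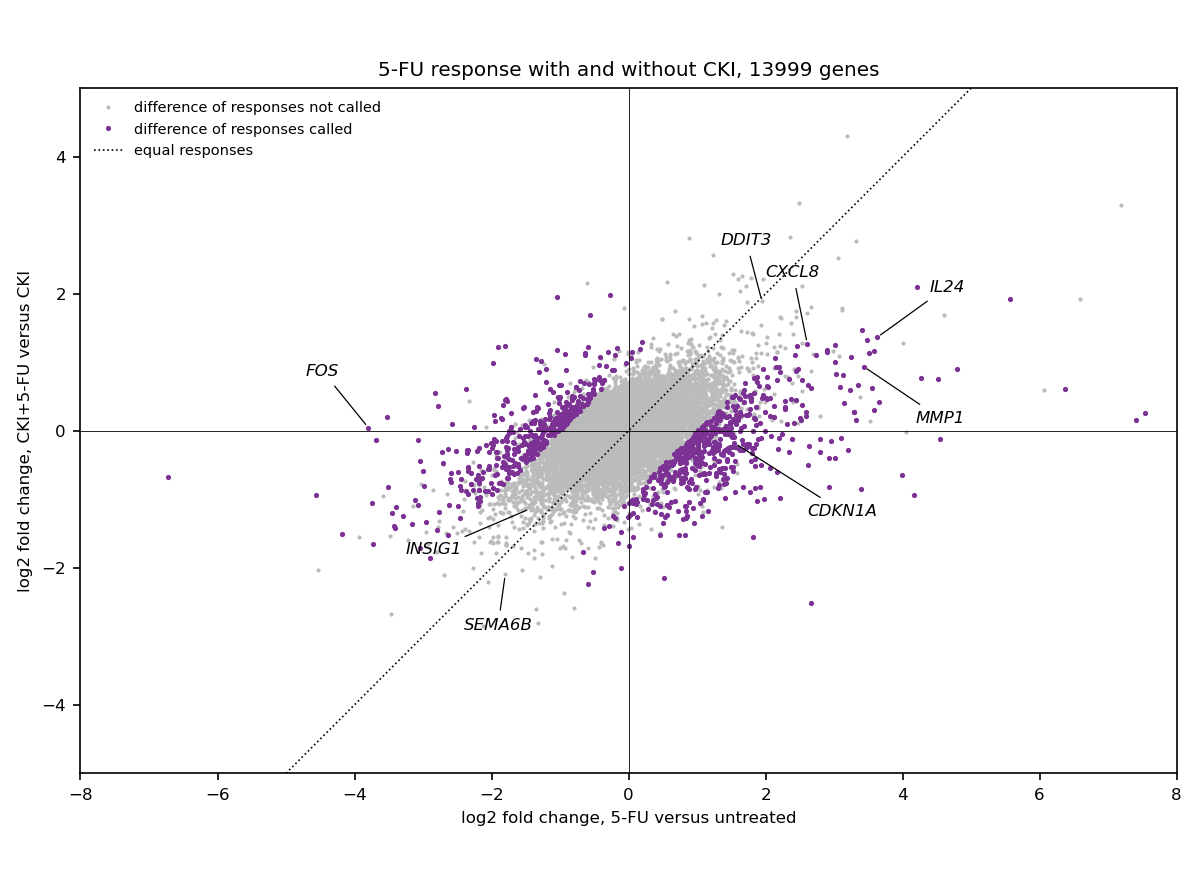
Log2 fold change of CKI+5-FU versus CKI (y axis) against that of 5-FU versus untreated (x axis) for 13999 genes, with purple points for the 958 genes whose responses differed by both thresholds and a dotted line where the responses are equal. DDIT3, SEMA6B and INSIG1 lie near the dotted line, MMP1, IL24 and CXCL8 lie below it, and FOS and CDKN1A lie near the horizontal line at 0.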

How the data were processed

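RNA of MDA-MB-231 cells was sequenced by the authors from unstranded libraries. Per the submitters' processing notes, reads were trimmed with Trim Galore 0.3.7 and aligned to hg19 with STAR 2.5.3a. The counting tool, its annotation and its use of strand are not given in the sources used here, which leaves genes that overlap or lie antisense uncertain. The authors deposited raw counts per gene, with 24566 rows and 27 columns, all of which matched a sample label. Symbols for 24422 of these Entrez IDs, and the promoters, were taken from RefSeq tables (GRCh38.p14). GC content and length came from canonical transcripts on GRCh37 and were found for 92.5% of rows.

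The 12 MDA-MB-231 libraries were fitted together with edgeR 4.0.16 in R 4.3.3 (TMM, filterByExpr, glmQLFit and glmQLFTest), and p-values were adjusted by the Benjamini-Hochberg method over all 13999 genes tested. All adjusted p-values in the text come from this test. A gene was said to rise or fall at an adjusted p under 0.05, and was called DE when the absolute log2 fold change was also over 1. Standard errors were derived from the fold change and the F statistic. The contrasts were CKI+5-FU minus CKI, 5-FU minus untreated, and the difference of these. The scripts were checked on simulated data. DESeq2 1.42.0, other scalings and filters, a replicate block and leaving out each library were alternatives, and the offsets for GC content and length (lowess, span 0.3) were chosen after seeing the data.

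The libraries, gene lists and named genes were chosen with earlier results of these data known. Named genes were the 8 DE genes of largest change in each direction with at least 5 CPM and groups that did not overlap, up to 4 DE members of each list (or 2 members of smallest adjusted p where none was DE), and genes fixed by name. Added to these were the 5 genes of largest called difference between responses in each direction, among genes with at least 5 CPM in the highest group mean. Other members were named as examples of a list after their values were seen. Same-numbered CKI and CKI+5-FU libraries did not deviate together (r of -0.049 to -0.005), so the replicate number was not used as a pairing. Some named genes are not reported here. Python was used for tables and figures.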

Additional observations from a re-analysis of the deposited data

Results flagged for a closer look

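The response to 5-FU differed with and without CKI, by the test of the difference itself, in 958 genes, and in 1062 without untreated replicate 1, the library that stood apart from its group. Among the named genes 34 had such a difference, 14 higher and 20 lower under CKI. Of these, 30 were also called without untreated replicate 1, 32 with the GC and length offsets and 23 under every setting run, and none changed its sign when 1 library was left out. The values are log2 differences of the 2 responses, CKI+5-FU versus CKI less 5-FU versus untreated.

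Among genes of inflammation and invasion the difference was -2.27 for IL24, -2.17 for IL1A, -1.34 for CXCL8, -1.30 for IL1B, -1.22 for TRAF1, -2.50 for MMP1 and -1.94 for SERPINB2, a gene at or below 1.85 CPM in all 12 libraries whose call was lost without untreated replicate 1 (-1.60, adjusted p = 0.056). Among genes of growth arrest and nucleotide supply it was -1.72 for CDKN1A, -1.66 for GDF15, -1.24 for TK1 and -1.15 for RRM2. It was -2.61 for CYP1A1, -1.38 for HSPA1A and -1.05 for NDUFV2.

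The difference was 3.84 for FOS, 2.60 for FOSB and 1.30 for EGR1, while over the 26 immediate early and stress factors it was higher in 8 and lower in 3 at an adjusted p of 0.05. Over all genes it was higher in 17.1% and lower in 14.3%. FOS fell to between 20.9 and 25.1 CPM with 5-FU alone, where it stayed between 244 and 280 CPM in the CKI+5-FU libraries. The histone genes H2AC6 (1.11) and H4C8 (1.03) were at 0.69 and 0.60 without untreated replicate 1 and were then not called. The difference was 1.10 for COL5A1, 1.37 for TGFB3, 1.00 for CCN2, 1.62 for CA9, 1.33 for ABCA3 and 1.04 for SEMA5A, which was 0.96 and not called without untreated replicate 1. Of the 20 settings run, SEMA5A was called in 12, CCN2 in 9 and H4C8 in 8. The 3 CCN2 libraries of the CKI group lay at 1171 to 1201 CPM, above the untreated cells at 528 to 541 CPM.

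Genes with at least 5 CPM in the highest group mean were ranked by their difference. The 5 of largest positive difference were FOS, FOSB, DHRS2 (2.98), HSD3B1 (2.68) and TMTC4 (2.41). HSD3B1 reached 5 CPM only in the untreated mean, at 5.35 CPM, and its CKI mean was 0.857 CPM. It was at 8.47 CPM in untreated replicate 1 against 3.73 and 3.84 CPM in the other untreated libraries. In every 5-FU and CKI+5-FU library it lay at 0.226 to 0.340 CPM, and its difference was 2.19 without untreated replicate 1. TMTC4, a gene of protein mannosylation, fell from between 19.8 and 22.5 CPM to between 2.62 and 2.66 CPM without CKI (-3.01) and from between 13.1 and 15.1 CPM to between 9.36 and 9.47 CPM with it (-0.60). The 5 of largest negative difference in this ranking were RPL13AP20 (-3.41), DACT3 (-3.12), MISP (-2.74), MIR3648-2 (-2.68) and MIR663AHG (-2.67). RPL13AP20 is a processed copy of a ribosomal protein gene and can share reads with it. The MIR3648-2 row was at 1.91 CPM in untreated replicate 1 and at 35.3 and 40.2 CPM in the other untreated libraries, and MIR663AHG at 7.47 CPM against 56.7 and 60.1 CPM. The keratin KRT5 was too scarce for this ranking and had a difference of -3.76. It was at 3.98 CPM in 5-FU replicate 1 against 0.826 and 1.21 CPM in the other 5-FU libraries. In that library the A431 markers KRT14 (2.39 CPM) and KRT6A (2.01 CPM) were higher as well, against 0.349 to 0.450 CPM and 0.399 to 0.450 CPM in the other 5-FU libraries, and the part of other cells in this value was not tested.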

How the results depend on the processing

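The count of 533 DE genes between CKI+5-FU and CKI was within 1.5 times of itself under RLE factors, library size alone, DESeq2, no filter on low counts, 1 row per Ensembl ID and the 6 compared libraries alone (491 to 554). It was 340 when every library had to hold at least 10 counts, which tests fewer genes, 5889 with the adjusted p alone and 348 with the GC and length offsets, which were chosen after seeing the data. Leaving out 1 library gave 424 to 535, the lowest without CKI+5-FU replicate 2. The count of 958 genes whose response differed was 4396 with the adjusted p alone, 850 to 1086 when 1 library was left out, 986 with the offsets, and between 734 and 979 under the other settings. Blocking on the replicate number gave 518 DE genes and 911 genes whose response differed. The numbers did not pair the samples, and CDH1 was the named gene that lost its call under the block (adjusted p = 0.061).

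Of the 88 named genes, RRM2 turned to -0.057 with the offsets, and FOS lay between -0.010 and 0.090 when 1 library was left out, below 0 without CKI+5-FU replicate 1, and neither was called in any of these fits. With the offsets, 10 named genes lost their call, namely TIPIN, CDKN1C, PLK1, GDF15, CXCL8, MMP17, COL5A1, COL18A1, MVK and ALDH3A1, all in the same direction and with an adjusted p under 0.05. HSD3B1 lost its call without any 1 of the 6 compared libraries (adjusted p from 0.054 to 0.12). The direction of the mitosis, ribosomal RNA processing, sterol and glycolysis lists was the same under every setting run, with 25 to 37 of the mitosis genes and 19 to 24 of the sterol genes lower at an adjusted p of 0.05. With library size alone KIF20A, GDF15, MSMO1, DDIT4 and CDH1 lost their call. The 280 DE genes under 5 CPM were measured at a depth where 3 counts make 0.140 to 0.151 CPM.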
